A study of Homo sapiens with 9 samples.

Results

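The genes that license DNA replication origins and copy the genome were followed in H1975 cells that expressed 1 of 2 forms of GRP78 or an empty plasmid. The group held 49 genes, chosen by symbol for what their products do, namely the MCM2-7 helicase, its loading and firing factors, the sliding clamp and its loader, the replicative polymerases, single-strand binding and strand-joining proteins, fork protection and chromatin factors, and G1/S regulators. Earlier results of these data were known when the genes were chosen. All 49 were found among the 61544 genes counted and all 49 were among the 18653 genes tested. Before S phase the origin recognition complex, CDC6 and CDT1 load the MCM2-7 ring onto DNA, and CDC45 and the GINS complex later turn it into the active helicase that opens the DNA for the polymerases. Most of these genes are targets of E2F transcription factors, are transcribed as cells pass from G1 into S phase, and are abundant in proliferating tumor cells.

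H1975 is a human lung adenocarcinoma line of epithelial cells. In all 3 groups endogenous GRP78, encoded by HSPA5, was depleted before the plasmid was given: si78, which targets the 3′UTR of its mRNA, acted for 24 h, and 48 h followed with pcDNA3 (Vector), with FLAG-tagged wild-type GRP78, F-78(WT), or with F-78(NLS Mut), in which 3 lysines of the nuclear localization signal are alanine. Each group, written below as Vector, WT and NLS Mut, was sequenced as 3 libraries. Every group thus carries si78, and untreated cells were not analysed here. WT against NLS Mut asks what changes when the expressed GRP78 lacks this signal, and each F-78 group against Vector asks what the expressed protein changes. The labels do not say that the 3 replicates came from separate cultures, so p-values measure only the spread between these libraries, which may be technical.

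Each library had 17671055 to 27476298 reads counted on genes, of which 56643 to 82941 fell on the 49 replication genes, and the smallest count of any of them in a library was 11 (E2F2). HSPA5 was at 378 ± 17.1 CPM (counts-per-million after TMM scaling, SD, n = 3) in Vector, 5664 ± 572 in WT and 4961 ± 195 in NLS Mut, lowest in the group that received no GRP78 plasmid, and the counts do not separate plasmid from cellular transcripts. WT and NLS Mut overlapped in HSPA5 (5031 to 6145 against 4765 to 5156 CPM), and WT was higher by 0.19 on the log2 scale (SE 0.05, edgeR adjusted p = 0.079). HSPA5 was called higher in WT with the replicate block (adjusted p = 0.029, edgeR), with the GC and length offset (0.036), with both (0.011), with only the 2 groups (0.0095) and without the filter on low counts (0.012). It was also called without Vector replicate 1 (0.0039), Vector replicate 3 (0.048) or WT replicate 1 (0.0025), at 0.20, 0.20 and 0.28 on the log2 scale. All 10 markers of lung epithelium and adenocarcinoma were detected in each group, with a summed level of 4578 to 5237 CPM in Vector, 4890 to 4976 in WT and 4456 to 4667 in NLS Mut, and 2 of them, KRT19 and CDH1, were called higher in WT than in NLS Mut. CDH1 and MUC1 were called lower in NLS Mut than in Vector. Of all tested genes 0.3% were called higher in WT than in NLS Mut, and 0.499% lower in NLS Mut than in Vector. As a list the 10 epithelial markers had a median log2 fold change of 0.19 in WT against NLS Mut, with 7 above 0 (51.1% of all tested genes lay below 0). In NLS Mut against Vector the median was -0.21, with all 10 below 0 (49.7% of all tested genes lay above 0). These medians are of the opposite sign to those of the replication genes and near them in size. The 8 markers of immune, endothelial and fibroblast cells summed to 10.6 to 15.7 CPM over all libraries, and 4 of the 8 were at 0 in each group. The part of these markers in the results below was not tested. Vector replicate 1 stood apart: without it, 1256 genes in place of 104 were called between WT and Vector, and 1002 in place of 148 between NLS Mut and Vector.

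As a group, the replication genes were lower in WT than in NLS Mut. The fitted log2 fold change lay below 0 for 44 of the 49 genes, against 51.1% of all tested genes, and its median was -0.22, against -0.01 over all tested genes. Called lower at an adjusted p under 0.05 (edgeR's quasi-likelihood test, Benjamini-Hochberg over all tested genes) were 5 genes, MCM2, MCM7, CDC6, CDT1 and UHRF1, and 0 were called higher. That is 10.2% of the group, against 0.504% of all tested genes called in either direction and 0.204% called lower. An unadjusted p under 0.05 was reached by 25 genes, all lower in WT (6.0% of all tested genes were lower at this level). In 25 genes, too, the 3 WT libraries all lay below the 3 NLS Mut libraries, which 9.42% of all tested genes did. The changes were small, with CDT1 at 0.685 and MCM2 at 0.778 of their NLS Mut level. MCM2 is among the genes that a figure of the study picks out from these libraries, so it is not independent evidence. The other 48 genes were chosen with earlier results of these data known and are not independent evidence either. Without MCM2, 4 of 48 genes were called and the median was -0.22.

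The calls depended on single libraries. Without WT replicate 1 or without NLS Mut replicate 2, 0 of the 49 were called, and the median was -0.15 and -0.19. Of all tested genes 0.209% and 0.14% were called in these 2 fits, against 0.504% with all libraries. Without WT replicate 3, 1 gene (MCM2) was called (0.197% of all tested genes), and without NLS Mut replicate 3, 2 genes were (0.226%). Without WT replicate 2 or NLS Mut replicate 1, 3 genes were called (0.703% and 0.181% of all tested genes). Leaving out Vector replicate 1, which is in neither group, raised the number to 13. Calls over all tested genes rose too, from 0.504% to 1.95%, so the rise was not particular to the replication genes. The 8 replication genes added were MCM3 at -0.22 (adjusted p = 0.047, edgeR), MCM4 at -0.24 (0.0047), MCM5 at -0.33 (0.0034), ORC6 at -0.34 (0.039), GMNN at -0.36 (0.048), CDC45 at -0.34 (0.027), POLA1 at -0.31 (0.022) and CLSPN at -0.41 (0.048). Fewer cells in S phase and less of each RNA per cell cannot be told apart in these bulk libraries.

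**Figure D1:**
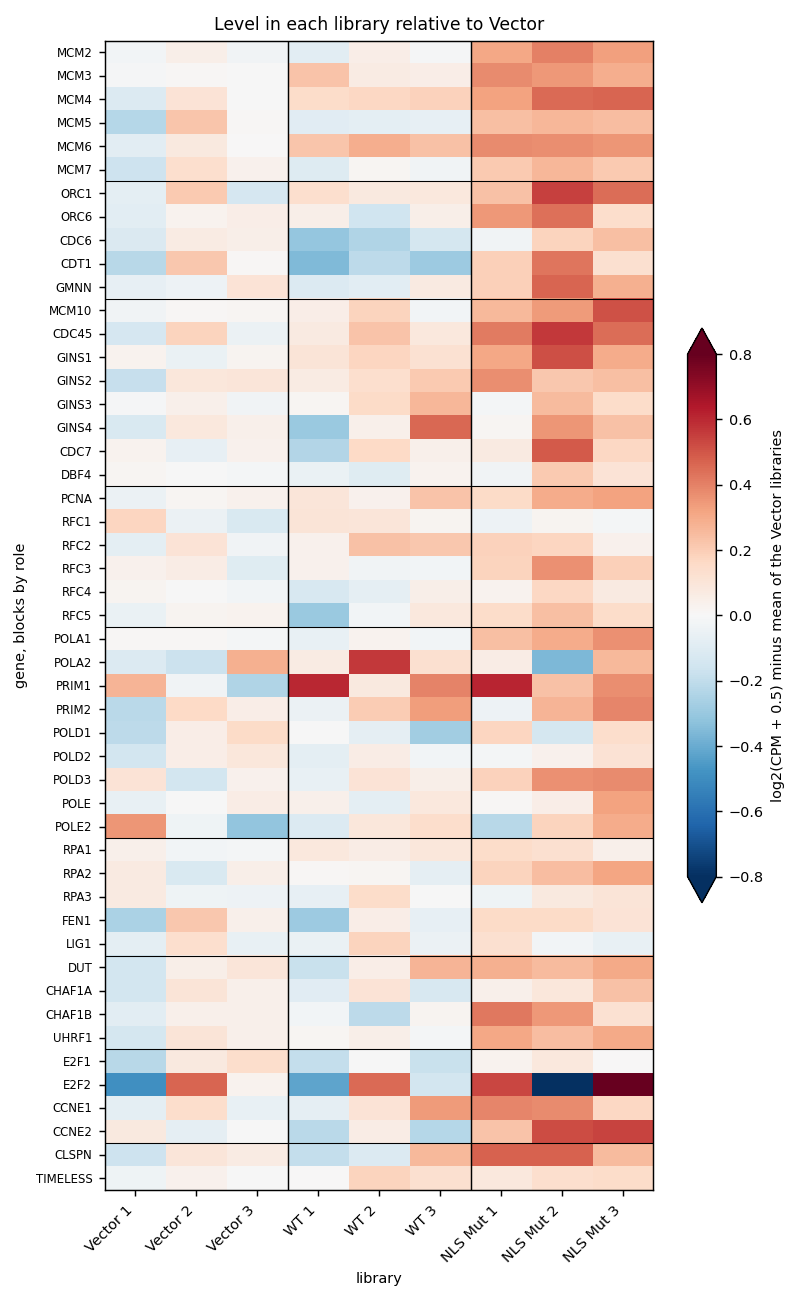
Level of the 49 replication genes (rows, in blocks by role) in each of the 9 libraries (columns), as log2(CPM + 0.5) minus the mean of the 3 Vector libraries, with red for higher and blue for lower. The NLS Mut columns are mostly red, with medians over the 49 genes of 0.19, 0.25 and 0.24, while the WT medians were -0.05, 0.06 and 0.05. Values beyond 0.8 on either side are drawn in the end colors.

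The 6 genes MCM2 to MCM7 encode the ring-shaped helicase that is loaded at origins and later unwinds the DNA. For each of the 6, every NLS Mut library was above every WT library and above every Vector library. MCM2 (chromosome 3 from 127598223 to 127622436, GRCh38) was at 87.9, 92.1 and 87.5 CPM in Vector replicates 1, 2 and 3, at 84.1, 92.4 and 88.4 in WT and at 110.5, 118 and 112 in NLS Mut. The Vector and WT values were mixed with each other and the NLS Mut values stood above both. Between WT and NLS Mut the log2 fold change of MCM2 was -0.36 (SE 0.07, edgeR adjusted p = 0.0055). Without WT replicate 1 or NLS Mut replicate 2, left out alone, MCM2 had values of -0.33 to -0.32 and was not called (adjusted p = 0.066 to 0.11, edgeR).

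MCM7 (on chromosome 7 from 100092728 to 100101940) had 222, 273 and 255 CPM in Vector, 231, 251 and 245 in WT and 287, 300.0 and 288 in NLS Mut. Its WT libraries fell within the range of Vector, and its log2 fold change between WT and NLS Mut was -0.27 (SE 0.06, edgeR adjusted p = 0.048). Without WT replicates 1 or 3 or NLS Mut replicates 1, 2 or 3, left out alone, MCM7 had values of -0.27 to -0.23 and was not called (adjusted p = 0.16 to 0.28, edgeR). It was also not called with DESeq2's size factors in edgeR (adjusted p = 0.053) or with the sum of both strand counts (adjusted p = 0.056).

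MCM5, another subunit of the ring, was tight within both F-78 groups. It had 69.5, 70.1 and 70.7 CPM in WT and 87.5, 89.1 and 88.0 in NLS Mut, while Vector spread from 63.1 to 86.4. Its log2 fold change of -0.33 (SE 0.08, edgeR adjusted p = 0.061) was close to that of MCM2 and missed the threshold. It passed in DESeq2 (adjusted p = 0.018) and in edgeR with the GC and length offset (0.0041). MCM3, MCM4 and MCM6 showed another order of the groups, with all 3 Vector libraries at the bottom and WT between Vector and NLS Mut. MCM4 was at 151, 176 and 162 CPM in Vector, 179.8, 182 and 185 in WT and 203, 223 and 224 in NLS Mut. MCM3 was at 92.6, 93.6 and 92.9 in Vector, 109, 97.4 and 96.7 in WT and 121, 119 and 114 in NLS Mut. The values of MCM6 were 71.4, 79.7 and 75.8 CPM in Vector, 88.2, 92.4 and 89.0 in WT and 98.6, 97.8 and 96.5 in NLS Mut. In all 3 genes the 3 groups did not overlap. WT against NLS Mut gave log2 fold changes of -0.25 for MCM4 (adjusted p = 0.061, edgeR), -0.22 for MCM3 (adjusted p = 0.14) and -0.12 for MCM6 (adjusted p = 0.52), and the main edgeR fit called none of the 3. DESeq2 called MCM3 (adjusted p = 0.046) and MCM4 (adjusted p = 0.012), and edgeR called MCM4 with the replicate block too (adjusted p = 0.029). With the GC and length offset edgeR called MCM3 (adjusted p = 0.035) and MCM4 (0.0039).

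**Figure D2:**
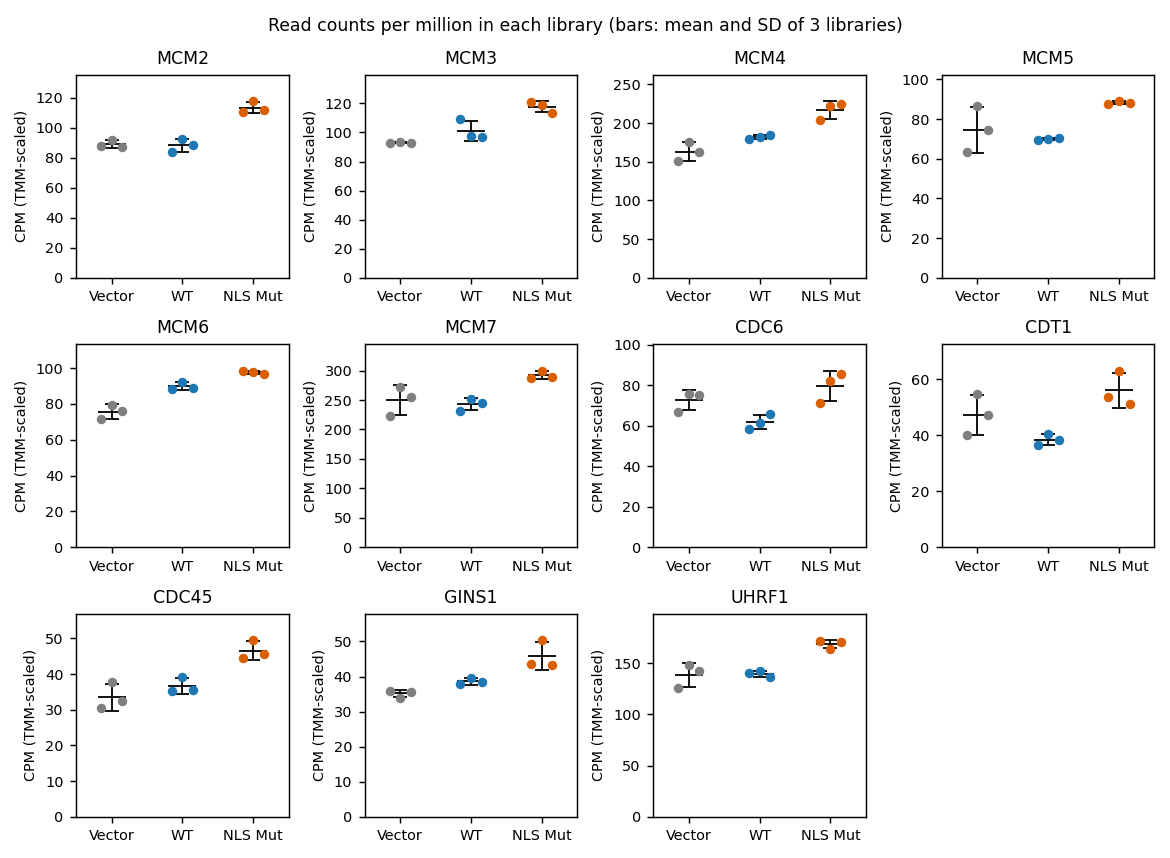
Read counts in CPM (scaled by TMM) of the 6 MCM2-7 genes and of the other members called in a comparison, in each of the 3 Vector, 3 WT and 3 NLS Mut libraries, with bars for the mean and SD. The 3 NLS Mut points lie above all other points for the 6 MCM genes, CDC45, GINS1 and UHRF1, and WT lies below the other libraries for CDC6.

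The genes for recognizing origins and loading the helicase, grouped with GMNN for an inhibitor of loading, had the lowest median of the 9 roles. This log2 fold change between WT and NLS Mut was -0.37 over 5 genes, the value of GMNN itself. In all 5 every WT library lay below every NLS Mut library. CDT1, which brings MCM2-7 to the origin, lies on chromosome 16 from 88803213 to 88809258. It was at 40.1, 54.5 and 47.1 CPM in Vector, 36.5, 40.4 and 38.3 in WT and 53.6, 63.1 and 51.3 in NLS Mut. WT was the lowest group, overlapping Vector only through Vector replicate 1 and WT replicate 2. The log2 fold change of CDT1 was -0.55 (SE 0.10, edgeR adjusted p = 0.0055), the lowest value among the 10 members called in any comparison. Without WT replicates 1 or 3 or NLS Mut replicate 2, left out alone, CDT1 had values of -0.53 to -0.44 and was not called (adjusted p = 0.052 to 0.15, edgeR).

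CDC6, the ATPase that works with the origin recognition complex in loading (on chromosome 17 from 40287633 to 40304657), was at 67.0, 75.9 and 75.0 CPM in Vector, 58.5, 61.4 and 65.6 in WT and 71.2, 82.2 and 85.6 in NLS Mut. It was the only one of the 49 genes in which all 3 WT libraries lay below the other 6, a pattern seen in 2.23% of all tested genes. NLS Mut and Vector overlapped. The fold change between WT and NLS Mut was -0.37 on the log2 scale (SE 0.08, edgeR adjusted p = 0.030). Without WT replicates 1, 2 or 3 or NLS Mut replicates 2 or 3, left out alone, CDC6 had values of -0.40 to -0.31 and was not called (adjusted p = 0.057 to 0.22, edgeR). GMNN encodes geminin, which inhibits CDT1 and so acts against loading, and it had -0.37 (adjusted p = 0.10, edgeR). ORC1 and ORC6, subunits of the origin recognition complex, had -0.33 (adjusted p = 0.30) and -0.34 (adjusted p = 0.096). These 3 were not called in the main edgeR fit. DESeq2 called GMNN and ORC6 (adjusted p = 0.033 for both). With the GC and length offset edgeR called GMNN (adjusted p = 0.040) and ORC6 (0.027) too. In ORC1, ORC6 and GMNN the NLS Mut libraries lay above the other 6.

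The 8 genes for firing origins and assembling the CMG helicase (CDC45, MCM2-7 and GINS) lay at a median of -0.19 on the log2 scale between WT and NLS Mut. In the main edgeR fit 0 were called (3 at an unadjusted p under 0.05). DESeq2 called CDC45 (adjusted p = 0.026), as did edgeR with the GC and length offset (0.022) and with the replicate block (0.042). CDC45 had 30.4, 37.8 and 32.4 CPM in Vector, 35.1, 39.2 and 35.5 in WT and 44.6, 49.5 and 45.7 in NLS Mut. GINS1, a GINS subunit, had 35.9, 33.9 and 35.7 in Vector, 37.7, 39.7 and 38.4 in WT and 43.6, 50.4 and 43.2 in NLS Mut. In both genes the NLS Mut libraries stood above the other 6, and in GINS1 WT also stood above Vector. The log2 fold changes were -0.35 for CDC45 (adjusted p = 0.085, edgeR), -0.30 for MCM10, which helps to activate the helicase (adjusted p = 0.20), and -0.25 for GINS1 (adjusted p = 0.23). Of the other GINS subunits, GINS2 had -0.14, GINS4 -0.11 and GINS3 0.02, none called. CDC7 and DBF4, which form the kinase that triggers firing, had -0.27 and -0.14 (adjusted p = 0.44 and 0.50, edgeR), and their WT and NLS Mut libraries overlapped.

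Further along the fork the medians between WT and NLS Mut were nearer 0. The main edgeR fit called 0 of 20 genes (7 at an unadjusted p under 0.05). DESeq2 called POLA1 (adjusted p = 0.0077), as did edgeR with the GC and length offset (0.012) and with the replicate block (0.047). In medians on the log2 scale, the clamp and clamp loader had -0.14 over 6 genes, the polymerases and primase -0.06 over 9, and the single-strand binding and Okazaki fragment proteins -0.03 over 5. The lowest p in the first of these roles was that of RFC3, a clamp loader subunit, at -0.26 (adjusted p = 0.34, edgeR), with RFC5 at -0.26 (adjusted p = 0.36). PCNA, the sliding clamp, was at 133, 139 and 140.3 CPM in Vector, 147, 141 and 161 in WT and 153, 168 and 171 in NLS Mut. Its Vector libraries lay below all 6 F-78 libraries, while WT replicate 3 overlapped NLS Mut, and its log2 fold change between these was -0.14 (adjusted p = 0.42, edgeR). POLA1, the catalytic subunit of the polymerase that starts each new strand, had -0.32 (adjusted p = 0.061), with 41.3 to 43.9 CPM in WT and 50.9 to 55.5 in NLS Mut. POLD3, an accessory subunit of polymerase delta, had -0.28 (adjusted p = 0.20). The catalytic subunits POLD1 and POLE had -0.18 and -0.12, with both groups overlapping. The clamp loader subunit RFC4 had -0.14, the primase subunits PRIM1 and PRIM2 -0.03 and -0.05, POLD2 -0.06 and the polymerase epsilon subunit POLE2 -0.06, none called. RPA2, of the single-strand binding complex RPA, had -0.26 (adjusted p = 0.20) and FEN1, which trims Okazaki fragments, -0.23 (adjusted p = 0.32), whereas RPA1 and RPA3 had -0.03 and -0.02.

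The 5 genes with a value above 0 between WT and NLS Mut were GINS3, RFC1, RFC2, POLA2 and LIG1, and none was called. RFC1, the large clamp loader subunit, had 0.08 with a 95% interval of -0.05 to 0.22. RFC2 had 0.03 (-0.14 to 0.20), and LIG1, which joins Okazaki fragments, 0.01 (-0.22 to 0.24). POLA2 had 0.30 with a wide interval of -0.15 to 0.74, at 5.42 to 7.90 CPM in WT and 3.92 to 6.30 in NLS Mut. GINS3 had 0.02 (-0.20 to 0.23).

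UHRF1, which binds newly copied, hemimethylated DNA and recruits the maintenance methyltransferase, was the only called gene among the 4 that supply dUTPase or rebuild chromatin behind the fork. It was at 126, 148 and 142 CPM in Vector, 140.1, 143 and 137 in WT and 172, 164 and 171 in NLS Mut, with the NLS Mut libraries above the other 6. The log2 fold change of UHRF1 between WT and NLS Mut was -0.27 (SE 0.06, edgeR adjusted p = 0.048). Without Vector replicate 2, WT replicates 1, 2 or 3 or NLS Mut replicates 1, 2 or 3, left out alone, UHRF1 had values of -0.29 to -0.25 and was not called (adjusted p = 0.062 to 0.24, edgeR). It was also not called with DESeq2's size factors in edgeR (adjusted p = 0.054) or with the sum of both strand counts (adjusted p = 0.057). CHAF1B, a subunit of the chromatin assembly factor CAF-1, had -0.38 (adjusted p = 0.19, edgeR) and DUT, which removes dUTP, -0.22 (adjusted p = 0.40), while CHAF1A had -0.16.

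Of the G1/S regulators, the cyclin E gene CCNE2 had -0.62 (adjusted p = 0.23, edgeR), the lowest value of the 49 genes, at only 3.23 to 4.04 CPM in WT and 4.62 to 5.84 in NLS Mut. With the sum of both strand counts it was -0.18 (adjusted p = 0.63). The other cyclin E gene, CCNE1, had -0.19 and the transcription factor E2F1 -0.16 (adjusted p = 0.54). E2F2, with 0.431 to 3.23 CPM within NLS Mut alone, was too low for its -0.42 to be read (-1.45 to 0.62). For fork protection, CLSPN, the adaptor of the replication checkpoint, had -0.41 (adjusted p = 0.12) and TIMELESS -0.02 (-0.16 to 0.12).

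**Figure D3:**
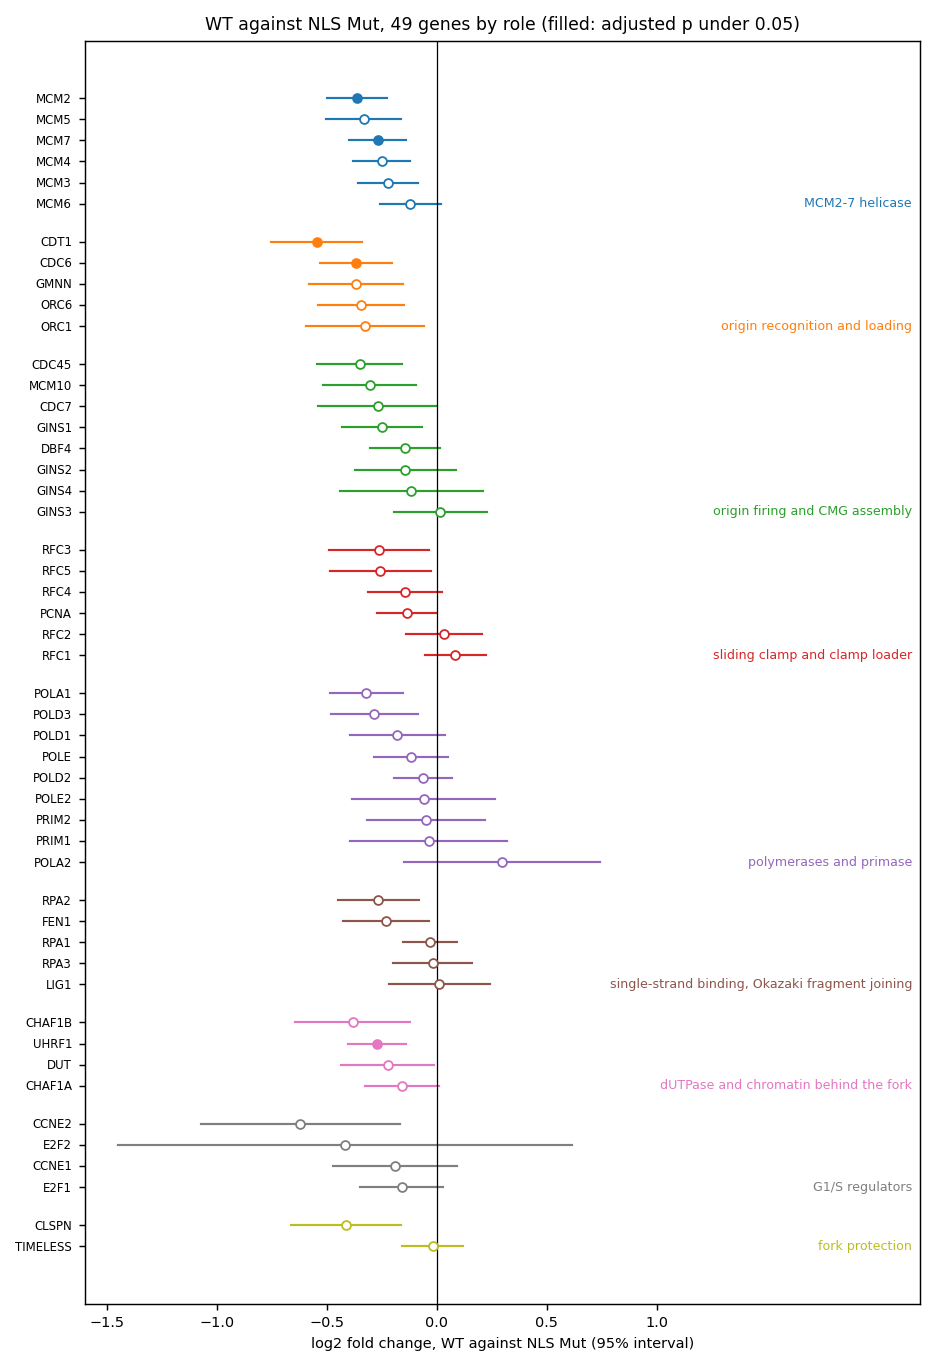
Log2 fold change of WT against NLS Mut for each of the 49 replication genes, with 95% intervals, in blocks by role. Filled points are the 5 called genes, and 44 points lie left of 0. The origin recognition and loading genes, GMNN among them (median -0.37), and the MCM2-7 genes (median -0.26) lie farther left than the polymerases (-0.06), whose intervals mostly cross 0.

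Set against Vector, NLS Mut carried the higher levels. In 47 of the 49 genes NLS Mut was above Vector, with a median log2 fold change of 0.25 (-0.0017 over all tested genes, of which 49.7% lay above 0). Called higher were 7 genes and lower 0, which is 14.3% of the group against 0.793% of all tested genes (0.295% called higher). In 28 genes all 3 NLS Mut libraries lay above all 3 Vector libraries, against 9.28% of all tested genes. The called genes were MCM2 at 0.35 (SE 0.07, edgeR adjusted p = 0.0065), MCM3 at 0.34 (SE 0.07, edgeR adjusted p = 0.0084), MCM4 at 0.41 (SE 0.06, edgeR adjusted p = 4.8e-04), MCM6 at 0.37 (SE 0.07, edgeR adjusted p = 0.0046), CDC45 at 0.48 (SE 0.09, edgeR adjusted p = 0.011), GINS1 at 0.38 (SE 0.09, edgeR adjusted p = 0.031) and UHRF1 at 0.28 (SE 0.06, edgeR adjusted p = 0.027). All 7 take part in the helicase, its activation or chromatin copying. MCM7 and MCM5 had 0.22 and 0.24 (adjusted p = 0.098 and 0.20, edgeR), and PCNA had 0.26 (adjusted p = 0.053), just missing the threshold. With the GC and length offset edgeR called MCM7 at 0.32 (adjusted p = 2.1e-04), MCM5 at 0.33 (0.0080) and PCNA at 0.27 (0.013). The 5 genes of origin recognition and loading, GMNN among them, had 0.13 (CDC6) to 0.42 (ORC1), and the main edgeR fit called 0. In 3 of them all NLS Mut libraries lay above all Vector libraries (9.28% of all tested genes). DESeq2 called ORC6, with 2.31% of all tested genes called. With the GC and length offset edgeR called CDT1 at 0.43 (adjusted p = 0.0043) and ORC1 at 0.47 (0.049), with 1.53% of all tested genes called.

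MCM4 was called whichever library was left out, and it was the only gene called without NLS Mut replicate 2 (adjusted p = 0.017, the highest over these fits, edgeR). Without Vector replicate 3 the called genes were MCM4 and MCM6, and without NLS Mut replicate 1 they were CDC45, MCM2 and MCM4. Without NLS Mut replicate 3 they were MCM2, MCM3, MCM4 and MCM6. Without Vector replicate 2 they were CDC45, MCM2, MCM4, MCM6 and UHRF1, and without Vector replicate 1 PCNA at 0.23 (adjusted p = 0.027, edgeR), POLA1 at 0.30 (0.035) and POLD3 at 0.36 (0.033) were called beside the 7. Of all tested genes 5.05% were called without Vector replicate 1. Without Vector replicates 2 or 3 or NLS Mut replicates 1, 2 or 3, left out alone, 0.171% to 0.259% were. The values of the members that lost the call in any fit without 1 library were 0.31 to 0.33 for MCM2, 0.32 to 0.34 for MCM3, 0.36 for MCM6, 0.42 to 0.48 for CDC45, 0.30 to 0.41 for GINS1 and 0.27 to 0.30 for UHRF1, on the log2 scale. The trend of a library's counts with GC content also varied within Vector, at -0.04, 0.10 and 0.11 on the log2 scale per 10 percentage points in replicates 1, 2 and 3, against -0.04 to -0.02 in NLS Mut. The fold change between NLS Mut and Vector fell with GC content in the 49 genes (Spearman's rho -0.29) as it did over 18187 tested genes (-0.31), a description across genes of the same libraries. With an offset for GC content and length 12 members were called higher, with a median of 0.27, and the 7 were among them. Calls over all tested genes rose too, from 0.793% to 1.53%, so the rise was not particular to the replication genes.

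WT, by contrast, lay near Vector: 26 genes were above it and 23 below (49.5% and 50.5% of all tested genes), with a median log2 fold change of 0.02. The split moved with the fit: 33 above and 16 below with the GC and length offset, 34 and 15 without Vector replicate 2, and 22 and 27 with library size alone. The fold change fell with GC content here too (Spearman's rho -0.26 in the 49 genes and -0.285 over 18187 tested genes). The WT and NLS Mut contrasts share the same Vector libraries, so they are not independent of each other. None of the 49 was called by edgeR, where 0.558% of all tested genes were called. At an unadjusted p under 0.05, 3 genes were higher (MCM4, MCM6 and PRIM1) and 2 lower (CDC6 and CDT1), against 5.19% and 6.52% of all tested genes, and DESeq2 called 1 gene, MCM6. MCM6 had 0.25 (SE 0.07, edgeR adjusted p = 0.091), with WT libraries of 88.2 to 92.4 CPM above the Vector libraries of 71.4 to 79.7. CDC6 and CDT1 had -0.23 and -0.30 (adjusted p = 0.21 and 0.19, edgeR). Without Vector replicate 1 both of these were called lower in WT, at -0.29 and -0.40 (adjusted p = 0.019 and 0.0058, edgeR). MCM2 had -0.01 with a 95% interval of -0.15 to 0.12, and UHRF1 0.01 (-0.12 to 0.14). MCM2, MCM7 and MCM5 lay below 0 here and above it without Vector replicate 2, at 0.015, 0.028 and 0.029, and were called in neither fit. MCM2 was also at 0.022 without WT replicate 1, and with the GC and length offset MCM2 and MCM7 were at 0.076 and 0.049.

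**Figure D4:**
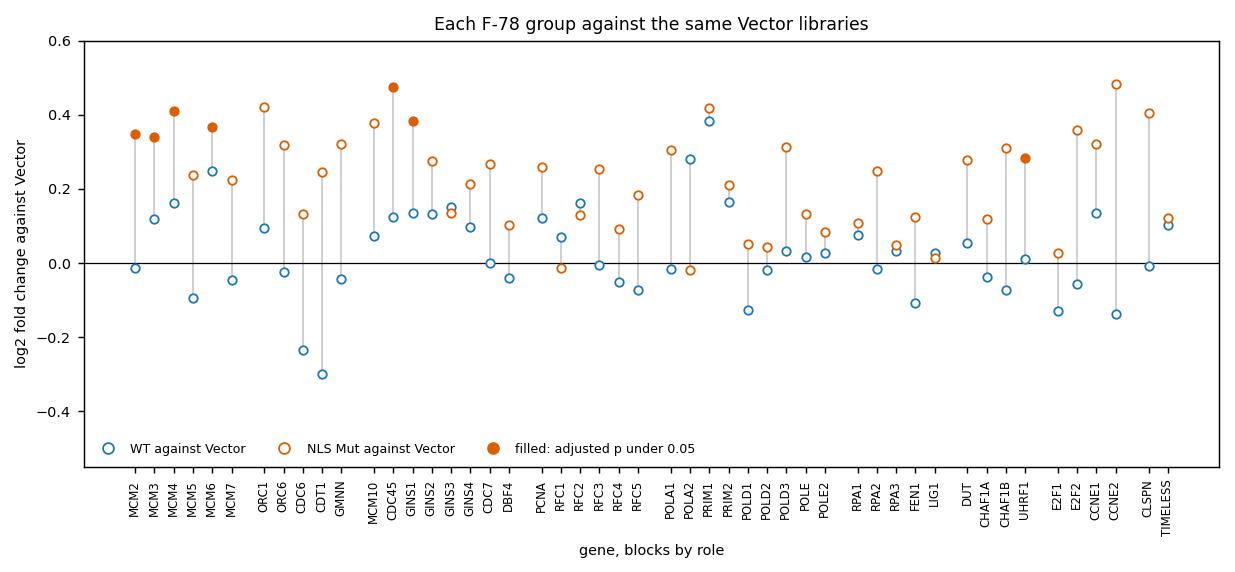
Log2 fold change against the same 3 Vector libraries for WT (blue) and NLS Mut (orange), gene by gene in blocks by role, with filled points for called genes. The orange points lie above 0 in 47 of 49 genes and above the blue points in 44, while blue points lie on both sides of 0.

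Over the 3 groups, the NLS Mut mean was the highest in 44 of the 49 genes, where 33.6% of all tested genes have it highest, and the WT mean was the highest in the other 5 (32.4% of all tested genes). In 21 genes the 3 NLS Mut libraries lay above the other 6, a pattern of 3.46% of all tested genes. It held in all 6 MCM2-7 genes, in ORC1, ORC6 and GMNN, in MCM10, CDC45, GINS1 and GINS2, in RFC3, RFC5, POLA1, POLD3 and RPA2, and in CHAF1B, UHRF1 and CCNE2. All 3 Vector libraries lay below the other 6 in 5 genes, MCM3, MCM4, MCM6, GINS1 and PCNA, a pattern of 2.27% of all tested genes. In each library the median of the 49 genes relative to Vector was -0.08, 0.05 and 0.02 for the Vector replicates, -0.05, 0.06 and 0.05 for WT and 0.19, 0.25 and 0.24 for NLS Mut, so the groups Vector and WT overlapped and NLS Mut stood above both.

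Levels between genes were compared per kilobase of exon (RPKM, mean of all 9 libraries). PCNA was the most abundant at 102, followed by MCM7 at 59.6 and POLD2, the small subunit of polymerase delta, at 55.0. The MCM2-7 genes, whose products form the ring in equal number, ranged from 10.6 (MCM5) to 59.6 (MCM7), with MCM2 at 19.8 as counted, MCM6 at 21.3, MCM4 at 26.9 and MCM3 at 28.5. Low levels were those of E2F2 at 0.303 and POLA2 at 0.976. The exonic length behind these values is the union of all annotated exons, so genes with many rare exons are understated. The count used leaves out reads that both strand counts together hold for MCM2 (1.56 times as many) and CCNE2 (3.91 times, 0.970 RPKM as counted), so neither can be placed in this order.

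Other genes of the same pathways were read in the same fits. Of 107 further genes for licensing, forks, deoxynucleotide supply, G1 control, the replication checkpoint and mitosis, 105 were tested. Between WT and NLS Mut edgeR called 0 of the 105, where 0.504% of all tested genes were called. At an unadjusted p under 0.05, 2 were higher and 25 lower, and 6.0% of all tested genes were lower at this level. DESeq2 called 7 of the 105, all lower in WT (ASF1B, CCND1, CDC20, DNA2, DTL, KIF11 and RIF1), and edgeR called these 7 and DNMT1 lower without Vector replicate 1 (1.69% and 1.95% of all tested genes called). All lower in WT, edgeR also called 8 with the GC and length offset (2.27% of all tested genes), 9 with the replicate block too (2.62%), 5 with only the 2 groups (1.8%) and 4 with the block alone (1.14%). The median of the 105 was -0.09, against -0.22 for the 49. The 14 other licensing and firing factors had a median of -0.13, the 9 deoxynucleotide supply genes -0.14, the 22 other fork factors -0.08, the 31 E2F, RB and G1 regulators -0.05 and the 9 checkpoint genes -0.02. The 20 genes of G2 and mitosis had a median of -0.12 and lay below 0 in 19 of 20. Against Vector, 88 of the 105 lay above 0 in NLS Mut, with a median of 0.13 (49.7% of all tested genes lay above 0). By edgeR 2 were called higher and 0 lower, where 0.793% of all tested genes were called. DESeq2 called 16 higher and 0 lower (2.31% of all tested genes called), and edgeR without Vector replicate 1 called 21 and 3 (5.05%). The deoxynucleotide supply genes had a median of 0.24 there, with 9 of 9 above 0, near the 0.25 of the 49 replication genes. The medians there were 0.17 for G2 and mitosis, 0.13 for other licensing and firing factors, 0.13 for other fork factors, 0.12 for the checkpoint and 0.06 for E2F, RB and G1 regulators. DTL, the receptor of the ubiquitin ligase that marks CDT1 for destruction, was at 34.1, 34.3 and 34.1 CPM in Vector, 35.0, 31.9 and 41.9 in WT and 40.6, 48.7 and 50.7 in NLS Mut, with 0.45 (SE 0.10, edgeR adjusted p = 0.025). Without Vector replicates 2 or 3 or NLS Mut replicates 2 or 3, left out alone, DTL had values of 0.38 to 0.45 and was not called (adjusted p = 0.12 to 0.23, edgeR). KIF11, a motor of the mitotic spindle, had 81.5, 80.6 and 80.8 in Vector, 85.5, 86.0 and 88.0 in WT and 99.1, 102 and 101 in NLS Mut, 3 groups that did not overlap, with 0.31 (SE 0.06, edgeR adjusted p = 0.016). Without Vector replicates 2 or 3 or NLS Mut replicates 1, 2 or 3, left out alone, KIF11 had values of 0.30 to 0.32 and was not called (adjusted p = 0.078 to 0.15, edgeR).

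**Figure D5:**
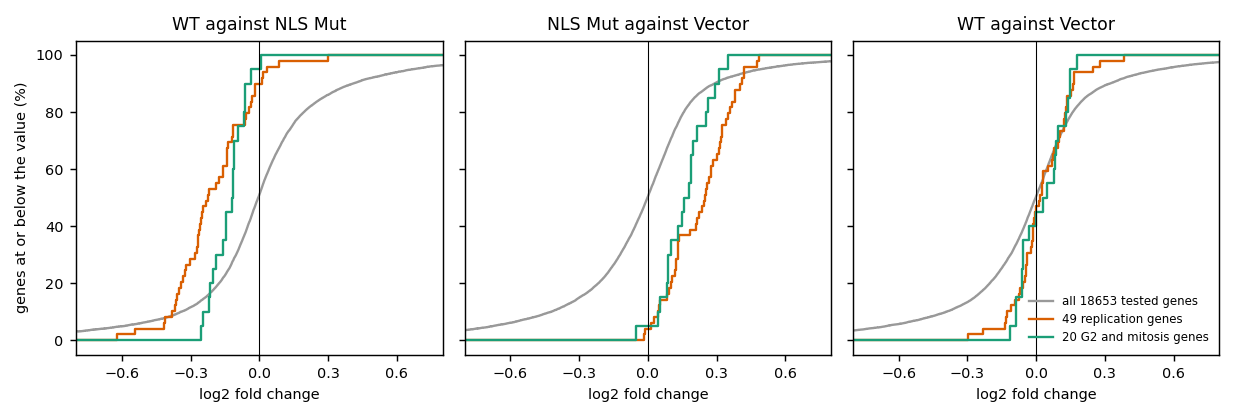
Share of genes (percent) at or below each log2 fold change for the 49 replication genes, 20 genes of G2 and mitosis and all 18653 tested genes, in the 3 comparisons. The replication curve is shifted to the left in WT against NLS Mut (median -0.22) and to the right in NLS Mut against Vector (0.25), with the mitotic genes between it and all genes, and it lies near all genes in WT against Vector (0.02).

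What these genes share in sequence was read from RefSeq promoters (GRCh38.p14, 250 bases before to 50 after each start, the start listed at the top where a gene has several), which matched 42 of the 49 genes and not MCM4, MCM5, GINS4, POLD3, RPA2, RPA3 or CCNE2. The E2F site, searched on both strands as TTTCCCGC, TTTGGCGC, TTTCGCGC or TTTGCCGC, was found in 20 of the 42 (47.6%), against 908 of 27305 promoters (3.33%). It was present in 8 of the 9 called members with a promoter, CDC45 being the exception. The match nearest to the start in these 8 is shown in capitals within 30 bases, 5′ to 3′ in the direction of the gene, because these are the called genes and their sites differ in letters and strand:
MCM2, chr3:127598402-127598431, plus strand: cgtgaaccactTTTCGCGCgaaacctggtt
MCM3, chr6:52284728-52284757, minus strand: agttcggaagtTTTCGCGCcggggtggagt
MCM6, chr2:135876511-135876540, minus strand: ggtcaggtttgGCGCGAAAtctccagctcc
MCM7, chr7:100101388-100101417, minus strand: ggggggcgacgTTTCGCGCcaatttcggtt
CDC6, chr17:40287875-40287904, plus strand: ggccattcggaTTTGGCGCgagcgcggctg
CDT1, chr16:88803743-88803772, plus strand: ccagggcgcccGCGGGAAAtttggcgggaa
GINS1, chr20:25407667-25407696, plus strand: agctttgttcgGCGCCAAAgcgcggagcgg
UHRF1, chr19:4909476-4909505, plus strand: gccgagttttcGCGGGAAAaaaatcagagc

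In the matches shown, MCM2, MCM3, MCM7 and CDC6 have the site in the direction of the gene, and MCM6, CDT1, GINS1 and UHRF1 have its reverse complement. MCM2 and MCM7 also hold a match in the opposite direction and MCM6 holds 2 in the direction of the gene. MCM6 has 4 matches in overlapping pairs, more than any other member. Members with and without the site had similar medians. The median log2 fold change between WT and NLS Mut was -0.23 in the 20 with it and -0.18 in the 22 without, and between NLS Mut and Vector 0.26 and 0.20. LIG1 and GINS3 have a match and values near 0 between WT and NLS Mut. The CCAAT box, searched as CCAAT, was in 23 of the 42 (54.8%, against 35.7% of all promoters), the E-box CACGTG in 7 (16.7%, against 7.43%) and the wider E-box CANNTG, which includes it, in 24 (57.1%, against 68.9%). The CHR element TTTGAA, known from mitotic genes, was in 1, DBF4 (2.38%, against 15.4%).

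Reads were counted without regard to strand, so a gene and its partner on the other strand cannot be told apart. The sum of both strand counts exceeded the count used here by more than 1.5 times in 5 members, CCNE2 (3.91), GINS4 (1.99), RFC5 (1.59), MCM2 (1.56) and PRIM1 (1.51), and their values are uncertain. With the strand sum MCM2 stayed at -0.34 between WT and NLS Mut (adjusted p = 0.0043, edgeR). RFC5 moved from -0.26 to -0.12 (adjusted p = 0.69, edgeR) and CCNE2 from -0.62 to -0.18 (adjusted p = 0.63). The members' median was then -0.18, and MCM7 and UHRF1 were not called. No single pseudogene copy had more than 0.645% of its member's counts (DUTP6, a copy of DUT). Other copies of DUT had counts too, DUTP2 at 0.527%, DUTP7 at 0.461% and DUTP1 at 0.0527%.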

How the data were processed

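The authors counted reads per gene with STAR and deposited 1 table per library, with an unstranded count and a count for each strand. The submitters' processing notes name STAR 2.7.9a, DESeq2 1.36.0 and GRCh38.p14, and the annotation release and library kit are not given in the sources used here. The deposited unstranded counts were used as they stand, since 50.6% to 51.9% of stranded counts fell on 1 strand. Reads without a gene (27.6% to 30.7% of all) were left out, which gave 17671055 to 27476298 counts per library. Symbols and coordinates came from GENCODE release 29 (GRCh38), which holds 58342 of the 61544 gene identifiers. Promoter sequences came from RefSeq.

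All 9 libraries entered 1 quasi-likelihood fit in edgeR 4.0.16 (R 4.3.3) with TMM scaling, the default filter on low counts and 1 coefficient per group. P-values were adjusted by Benjamini-Hochberg over 18653 genes, with calls made below 0.05. Intervals are at 95%, and SEs come from the same fit. Tests are two-sided. With 3 libraries a group, an exact permutation test of a single gene cannot go below p = 0.1, so none was used. On counts simulated from these libraries (3 runs, 18081 genes, 200 changed, WT against NLS Mut), edgeR called 76% of log2 changes of 0.5 and 99.7% of those of 1, with 4.69% of its calls false, and DESeq2 1.42.0 called 75% and 99.7%, with 8.55% false. The changed genes were drawn only from those above a minimum CPM. Smaller changes, such as the members' median of -0.22, were not simulated. These shares therefore do not say how often changes of the members' size, or in low-count members, are missed. No 2 libraries of a group agreed within sampling noise, so none appeared to be a repeated deposit. This does not show that they came from separate cultures.

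The member genes and the other lists were chosen with earlier results of these data known. Genes named with values are the members called in any comparison, MCM2 to MCM7, the lowest p of each role, members at an unadjusted p under 0.05 between WT and NLS Mut, and called genes of the other lists. Any others were named after their values were seen. DESeq2, other scalings and filters, the strand sum, a replicate block, an offset for GC content and length, thinning, fits of only 2 groups, and fits without each library were tried as alternatives.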

Additional observations from a re-analysis of the deposited data

How the results depend on the processing

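The sign of the members' median held under every alternative run in WT against NLS Mut and in NLS Mut against Vector, and in WT against Vector it turned to -0.01 with library size alone. The percent of all tested genes called in the same fit is given in brackets. Between WT and NLS Mut 5 members were called (0.504%), and 0 were called higher in any fit. The number called was 12 with DESeq2 (1.69%), 3 with DESeq2's size factors in edgeR (0.482%) and 9 without the filter on low counts (0.628%). It was 8 with a mean of at least 1 CPM (0.991%), 3 with the strand sum (0.403%) and 9 with only the 2 groups compared (1.8%). It was 13 with the GC and length offset (2.27%), 5 with library size alone (0.541%) and 5 with thinned libraries (0.657%). With 1 library left out it was 0 to 13 (0.14% to 1.95%), and the median log2 fold change ran from -0.24 to -0.15. Between NLS Mut and Vector 7 members were called (0.793%), against 14 with DESeq2 (2.31%) and 12 with the GC and length offset (1.53%). With 1 library left out 1 to 10 were called (0.171% to 5.05%), and the median ran from 0.18 to 0.28. Between WT and Vector edgeR called 0 (0.558%), with 5 at an unadjusted p under 0.05, and DESeq2 called 1, MCM6 (1.4%). With 1 library left out 0 to 2 were called (0.0967% to 6.33%), with the median at 0.01 to 0.07.

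The replicate numbers are shared by the groups. Over all tested genes, the deviations of same-numbered libraries from their group means had correlations of -0.02 to 0.06, and those of differently numbered libraries -0.05 to 0.02. With 3 libraries a group, such values cannot show whether same-numbered libraries shared a batch. With the replicate block 9 members were called between WT and NLS Mut, 0 between WT and Vector and 9 between NLS Mut and Vector. Of all tested genes 1.14%, 1.24% and 1.23% were called there. The block with the GC and length offset called 13, 1 (CDC6) and 12 members, and 2.62%, 1.3% and 1.82% of all tested genes. Between WT and Vector some values changed sign, and none of these was called: MCM2 at 0.076 and MCM7 at 0.049 with the GC and length offset (0.076 and 0.051 with the block too), and, with 1 library left out, MCM2 from -0.044 to 0.022, MCM7 from -0.12 to 0.028, MCM5 from -0.20 to 0.029 and DTL from -0.026 to 0.17. Over all genes the calls in WT against NLS Mut, WT against Vector and NLS Mut against Vector numbered 94, 104 and 148, and they were 316, 262 and 430 with DESeq2, 424, 200 and 286 with the GC and length offset, 212, 232 and 230 with the block, 225, 289 and 240 without the filter, and 315, 26 and 151 with only the 2 groups compared. Beyond the sampling built into each alternative (fewer libraries, genes or counts), the cause was not tested. Depth limits the rarest members most, with a lowest count of 11 in a library (E2F2).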
